A study of Mus musculus with 28 samples.

Results

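Iron handling was described through 10 genes of mouse embryonic stem (ES) cells: the exporter Slc40a1, the uptake genes Tfrc, Trf, Steap3 and Slc11a2, the mitochondrial carrier Slc25a37, the haem-degrading enzyme gene Hmox1, the storage gene Fth1 and the sensor genes Aco1 and Ireb2. The members were chosen by name from Slc40a1 outward. Slc40a1 was itself selected from its log2 values in hotspot mutants against wild-type DICER1, so every comparison that uses the mutant or WT-DICER1 arrays is given for it as a description with no test. The other 9 genes were added for their place in iron handling, with earlier results of these arrays known. All 10 passed the filter on low values, among 13954 genes tested and 19938 gene symbols in the table, and each had 1 probe set.

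The 28 Affymetrix Mouse Gene ST arrays each measured total RNA of 1 ES cell sample, collected during log-phase growth. DICER1 is the ribonuclease that cuts precursor hairpins into mature miRNAs, and the hotspot mutations lie in the residues of its RNase IIIb domain that bind metal ions. Dicer-/- cells carried a DICER1 transgene with the mutation D1709A (4 arrays), E1705K (3) or D1810Y (3) in the pLD-puro-ENvA vector, or D1709N (2) or E1813Q (2) in the pLD-puro-PGKnvA vector. Their controls were Dicer-/- cells with wild-type DICER1 (WT-DICER1, 6 arrays, of which 4 on ENvA and 2 on PGKnvA), and Dicer-/- cells with eGFP in the ENvA vector (3). Untransduced cells were Dicer-/- (Dicer-null, 3) or were the line with wild-type Dicer (Dicer-WT, 2). All groups except Dicer-WT therefore shared the Dicer deletion, and no mutation was measured in both vectors. The labels do not say whether a group came from separate cultures, clones or transductions, so a p-value here reflects the spread among arrays alone, and that spread may be technical. Only RNA was measured, in bulk, so fewer cells of a type and less RNA per cell cannot be told apart.

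Cells take up most of their iron bound to transferrin, the product of Trf, through the transferrin receptor encoded by Tfrc. In the endosome Steap3 reduces the released iron and Slc11a2 (DMT1) carries it into the cytosol, where it is used, passed to mitochondria by Slc25a37 (mitoferrin 1), stored in ferritin (Fth1 encodes the heavy chain) or exported by ferroportin (Slc40a1). Hmox1 (haem oxygenase 1) releases iron from haem, and its transcription is repressed by BACH1 and raised by NRF2. When iron is scarce, the iron regulatory proteins encoded by Aco1 (IRP1) and Ireb2 (IRP2) bind iron-responsive elements, which stabilises Tfrc mRNA and blocks translation of Fth1 and Slc40a1 mRNA.

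The probe set of Dicer1 averaged between 8.91 and 9.39 on the log2 scale in the groups with a transgene and 9.27 ± 0.04 in Dicer-null cells (SD, n = 3), against 10.68 ± 0.05 in Dicer-WT cells (SD, n = 2). It separated the deletion from the intact line and was not raised by the DICER1 transgenes, whose species is not given in the labels. The arrays numbered 4 of D1709A and WT-DICER1 stood apart. Each correlated with the ENvA arrays 1 to 3 of its group at 0.9902 or less over the 13954 genes tested, where those arrays correlated with each other at 0.9978 or more. The deposited values also held 3 exact linear relations among arrays. The deviations of the 2 arrays numbered 4 from arrays 1 to 3 of their group cancelled in every probe set (within 0.000133), the first arrays of 5 groups deviated by amounts that summed to 0, and the WT-DICER1 means on ENvA and PGKnvA were equal (within 7.5e-05). The origin of these relations was not tested. They make the p-values approximate, and the comparison of the PGKnvA mutants with eGFP, which was measured on ENvA alone, rests on the equal WT-DICER1 means. Where the call of a member changed without both arrays numbered 4, the values with and without them are given.

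Tests were two-sided in 1 limma model over all 28 arrays with a term for the vector, and a gene was called at a Benjamini-Hochberg adjusted p under 0.05 over the 13954 genes. All levels and differences are on the log2 scale, on which 1 unit is a 2-fold change, and each difference is the first-named group minus the second. Levels are not compared between genes.

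For Steap3, Tfrc and Fth1, the 3 members with a RefSeq promoter window (GRCm38.p6) that were called against eGFP in every one of the 5 mutants, the window below runs from 250 bases before to 50 bases after 1 annotated start. Capitals mark GGGCGG on either strand (CCGCCC on the opposite one), the core of the GC box bound by SP1-family factors. The Steap3 window lies at chr1:120265237-120265536 on the minus strand, the Tfrc window at chr16:32608872-32609171 on the plus strand and the Fth1 window at chr19:9982396-9982695 on the plus strand.
Steap3: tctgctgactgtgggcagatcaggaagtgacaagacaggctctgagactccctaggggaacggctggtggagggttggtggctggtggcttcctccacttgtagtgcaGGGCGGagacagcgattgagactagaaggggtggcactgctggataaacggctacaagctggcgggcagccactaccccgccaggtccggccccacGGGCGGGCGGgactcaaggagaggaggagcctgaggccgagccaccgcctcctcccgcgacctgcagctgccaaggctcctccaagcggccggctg
Tfrc: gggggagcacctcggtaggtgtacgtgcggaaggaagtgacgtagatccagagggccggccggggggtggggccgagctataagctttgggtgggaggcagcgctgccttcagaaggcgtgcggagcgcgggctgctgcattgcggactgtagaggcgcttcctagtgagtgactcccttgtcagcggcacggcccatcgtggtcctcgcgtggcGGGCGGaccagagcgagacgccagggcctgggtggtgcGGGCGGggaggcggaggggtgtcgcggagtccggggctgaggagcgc
Fth1: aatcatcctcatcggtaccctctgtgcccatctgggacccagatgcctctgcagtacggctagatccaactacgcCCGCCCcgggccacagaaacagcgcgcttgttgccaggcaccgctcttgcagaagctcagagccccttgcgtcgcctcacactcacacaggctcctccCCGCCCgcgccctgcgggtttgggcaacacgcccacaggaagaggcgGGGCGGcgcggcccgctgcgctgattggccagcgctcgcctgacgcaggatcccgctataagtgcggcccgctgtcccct
The Steap3 window held 3 such matches, of which 2 overlap, the Tfrc window 2 and the Fth1 window 3. GC made up 65.7% of the Steap3 window, 70.0% of the Tfrc window and 67.0% of the Fth1 window. Of the 10 windows of the 5 members with one, 6 held GGGCGG on either strand, against 35.7% of 32851 windows in the table. ACGTG, the core of the hypoxia response element, occurred on either strand in 2 windows, both of Tfrc, against 19.6% of all windows. These 2 windows overlap and hold the same single match. TGACNNNGC, the core of the antioxidant response element, occurred in 0 of the 10 windows and in 12.4% of all windows. TATAAA occurred on either strand in 1 window, against 13.6% of all windows. This was the Fth1 window that is not printed, where the match lies on the opposite strand. Windows at other annotated starts are not printed: 3 of Steap3 with 0, 0 and 1 match to GGGCGG, 1 of Tfrc with 0 and 1 of Fth1 with 0. The printed window of each gene is thus the one with the most matches, and the matches describe letters only.

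Ferroportin RNA took its highest levels in the ENvA mutants and its lowest in WT-DICER1. Slc40a1 stood at 9.79, 9.83, 9.65 and, on array 4, 8.48 in D1709A. In E1705K it was 10.11, 10.20 and 10.23, and in D1810Y 10.20, 10.18 and 10.18. These 2 groups overlapped each other and lay above every other array. The PGKnvA mutants were lower, at 8.68 and 8.59 in D1709N and at 8.95 and 8.93 in E1813Q. WT-DICER1 ranged from 7.53 to 8.87 with a median of 7.80, and its highest array was number 4. Slc40a1 was 8.60, 8.49 and 8.45 in eGFP, 8.30, 8.33 and 8.33 in Dicer-null and 8.95 and 9.01 in Dicer-WT. Without the 2 arrays numbered 4, every mutant array was above every WT-DICER1 array, whose highest level was then 7.92, and with them the groups overlapped.

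**Figure D1:**
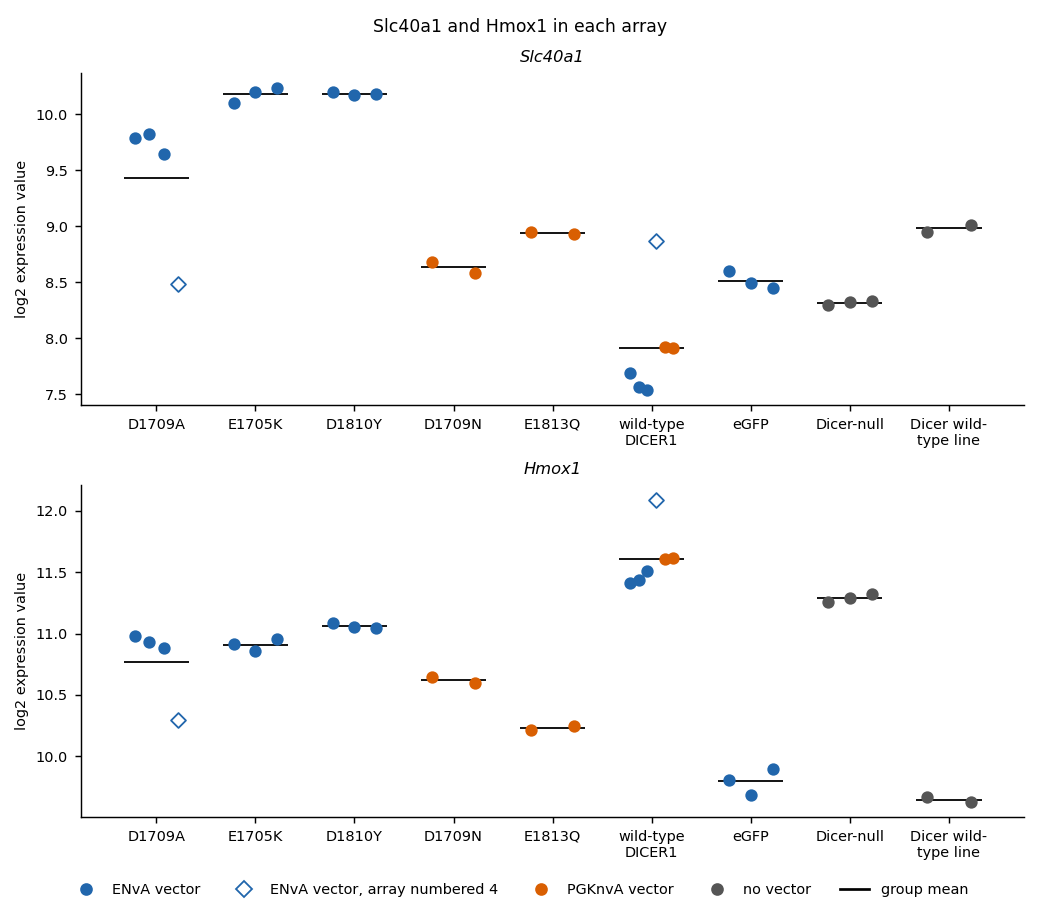
Log2 level of Slc40a1 and Hmox1 on each of the 28 arrays by group, with mutants on the left and their controls on the right; bars are group means, and open diamonds are the arrays numbered 4. Slc40a1 is highest in E1705K and D1810Y (10.18 and 10.19 on average), and Hmox1 is highest in WT-DICER1 (11.61).

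As a description of the values that chose it, Slc40a1 averaged 1.56 above WT-DICER1 over the 5 mutants, and 1.82 without the arrays numbered 4. The difference was 1.52 for D1709A, 2.27 for both E1705K and D1810Y, 0.72 for D1709N and 1.03 for E1813Q. Among the ENvA arrays 1 to 3 the mutants lay 2.16, 2.59 and 2.59 above WT-DICER1, between the 2 arrays numbered 4 D1709A lay 0.39 below it (difference −0.39), and among the PGKnvA arrays the mutants lay 0.72 and 1.03 above it. The direction thus held in 2 of the 3 array sets.

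The comparisons with eGFP use the same mutant and WT-DICER1 arrays, so for Slc40a1 they too are a description. Ferroportin RNA averaged 0.96 above eGFP over the mutants (1.95-fold, SE 0.235), and 0.90 above it without the arrays numbered 4. D1709A was 0.92 above eGFP (SE 0.247), and E1705K and D1810Y were both 1.67 above it (SE 0.264 each). D1709N was 0.12 above eGFP (SE 0.406) with the arrays numbered 4 and 0.20 below it without them (difference −0.197). E1813Q was 0.43 above it (SE 0.406) with them and 0.11 above it without them. WT-DICER1 was 0.60 below eGFP (difference −0.60, SE 0.247), and 0.92 below it without the arrays numbered 4 (−0.92). Dab2, an endocytic adaptor and 1 of 12 listed extraembryonic endoderm markers, was also highest in E1705K and D1810Y (8.56 in each). It averaged 7.87 in D1709A, 7.46 in D1709N and 7.74 in E1813Q, against 7.70 in WT-DICER1 and 6.75 in eGFP. Cubn of the same list was also highest in E1705K (6.93) and D1810Y (6.71), whereas Gata6 was highest in WT-DICER1 (8.21) and Gata4 in Dicer-null (8.21). The part of these markers in the Slc40a1 values was not tested. The comparisons with eGFP share its 3 arrays. The groups without a DICER1 transgene were not used in the choice. Among them, Dicer-null was 0.66 below Dicer-WT (difference −0.66, limma adjusted p = 0.057), which was called without array 4 of D1709A (adjusted p = 0.00688) or of WT-DICER1 (adjusted p = 0.00687), without both (adjusted p = 2.38e-11) and after centring of the arrays (adjusted p = 0.0494). eGFP was 0.19 above Dicer-null (adjusted p = 0.585), which was called without both arrays numbered 4 (adjusted p = 0.00218).

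Transferrin uptake genes moved in different directions. Steap3 rose in all 5 mutants and in WT-DICER1 against eGFP, and Tfrc fell in all of them. Steap3 was 9.32, 9.27, 9.24 and 9.38 in D1709A, 9.01, 9.03 and 9.10 in E1705K, 9.20, 9.13 and 9.22 in D1810Y, 9.24 and 9.22 in D1709N and 9.17 and 9.27 in E1813Q. WT-DICER1 lay between 8.85 and 8.99 with a median of 8.92. eGFP was 8.35, 8.31 and 8.43, Dicer-null 8.45, 8.50 and 8.47, and Dicer-WT 7.78 and 7.84. All 14 mutant arrays were above all 6 WT-DICER1 arrays, which in turn were above all eGFP, Dicer-null and Dicer-WT arrays. The rise against eGFP was 0.83 over the mutants (1.78-fold, SE 0.0464, adjusted p = 1.14e-13), with single mutants between 0.68 and 0.94, and 0.56 in WT-DICER1 (adjusted p = 3.19e-10). Against WT-DICER1 it was 0.27 (adjusted p = 5.22e-08) and was called in each mutant, at 0.12 in E1705K and between 0.26 and 0.38 in the others. The E1705K call was lost without E1705K array 2 or 3 (adjusted p = 0.0574 and 0.171) or WT-DICER1 array 3 or 4 (adjusted p = 0.0915 and 0.118), without both arrays numbered 4 (adjusted p = 0.0885), after centring of the arrays (adjusted p = 0.166), with no filter on low values (adjusted p = 0.0552) and with the replicate block (adjusted p = 0.0843). Dicer-null was 0.66 above Dicer-WT (adjusted p = 3.44e-10). eGFP was 0.11 below Dicer-null (−0.11, adjusted p = 0.0859), which was called without eGFP array 3 (adjusted p = 0.0418).

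Tfrc was 11.66, 11.68, 11.58 and 11.73 in D1709A, 11.66, 11.76 and 11.76 in E1705K, 11.51, 11.51 and 11.54 in D1810Y, 11.57 and 11.51 in D1709N and 11.48 and 11.47 in E1813Q. WT-DICER1 ranged from 11.55 to 11.69 with a median of 11.62, and eGFP was 11.86, 11.98 and 11.84. Dicer-null stood at 11.82, 11.77 and 11.72, and Dicer-WT at 10.72 and 10.75 on its 2 arrays, which lay below every array of the other groups. Every mutant array lay below every eGFP array, while mutants and WT-DICER1 overlapped. The mutants were lower than eGFP by 0.31 (difference −0.31, SE 0.0382, adjusted p = 1.79e-07) and WT-DICER1 by 0.28 (−0.28, adjusted p = 1.62e-06). The mean of the mutants did not pass the test against WT-DICER1 (−0.03, 95% confidence interval −0.09 to 0.02, adjusted p = 0.275). The same difference was called after centring of the arrays (adjusted p = 0.0103). Of the single mutants, E1705K was called higher by 0.11, and D1810Y and E1813Q lower (−0.10 and −0.14). Each of these 3 calls was lost when 1 array was left out: E1705K array 2 or 3, D1810Y array 1, 2 or 3, E1813Q array 1 or 2, or WT-DICER1 arrays 3 and 4 (for E1705K), 1, 2, 5 and 6 (for D1810Y), or 5 and 6 (for E1813Q), with adjusted p of 0.0505 to 0.151. Dicer-null was 1.04 above Dicer-WT (2.05-fold, SE 0.0479, adjusted p = 1.63e-15). eGFP was 0.12 above Dicer-null (adjusted p = 0.0211), a call lost without Dicer-null array 3 (adjusted p = 0.106) or eGFP array 2 (adjusted p = 0.156).

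Trf, the gene of the carrier protein itself, was lowest in Dicer-null (7.90 to 8.07) and in Dicer-WT (7.76 and 7.86 on its 2 arrays). The mean was 8.51 in D1709A, 8.26 in E1705K, 8.20 in D1810Y, 8.75 in D1709N, 8.61 in E1813Q, 8.50 in WT-DICER1 and 8.59 in eGFP, with SDs of 0.07 to 0.14. eGFP was above Dicer-null by 0.60 (1.52-fold, SE 0.086, adjusted p = 2.21e-06), with no overlap of their arrays. Against eGFP, Trf fell by 0.34 in E1705K (difference −0.34, adjusted p = 0.0019) and by 0.39 in D1810Y (−0.39, adjusted p = 0.000479). The other 3 mutants lay between −0.08 and 0.16 and were not called. Against WT-DICER1, Trf was also lower in E1705K (−0.24, adjusted p = 0.014) and in D1810Y (−0.30, adjusted p = 0.00299). The E1705K call was lost without E1705K array 2 (adjusted p = 0.0711) or WT-DICER1 array 1 (adjusted p = 0.0612). D1709N was 0.25 above WT-DICER1 (adjusted p = 0.0642), which was called without the arrays numbered 4 (adjusted p = 0.0162), with 1 vector only (adjusted p = 0.0444) and with no vector term (adjusted p = 0.0159). Dicer-null was 0.18 above Dicer-WT (adjusted p = 0.115), which was called without the arrays numbered 4 (adjusted p = 0.0434).

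Slc11a2 was low in WT-DICER1 and in Dicer-WT. Its arrays lay between 8.96 and 9.28 in the mutants with a median of 9.11, and between 8.64 and 8.79 in WT-DICER1 with a median of 8.68. It was 9.07, 8.96 and 9.03 in eGFP, 9.04, 9.14 and 9.11 in Dicer-null and 8.77 and 8.73 in Dicer-WT. Mutants and WT-DICER1 did not overlap, whereas mutants and eGFP did. Its rise over WT-DICER1 was called in each of the 5 mutants and lay between 0.32 and 0.55 (mean 0.41, SE 0.0321, adjusted p = 4.68e-11), and WT-DICER1 was lower than eGFP by 0.32 (−0.32, adjusted p = 3.84e-06). Against eGFP, 1 of 5 mutants was called, D1810Y at 0.23 (adjusted p = 0.000781), and E1705K at 0.11 (adjusted p = 0.0921) was called without both arrays numbered 4 (adjusted p = 0.0497). Dicer-null was 0.35 above Dicer-WT (adjusted p = 1.4e-05).

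**Figure D2:**
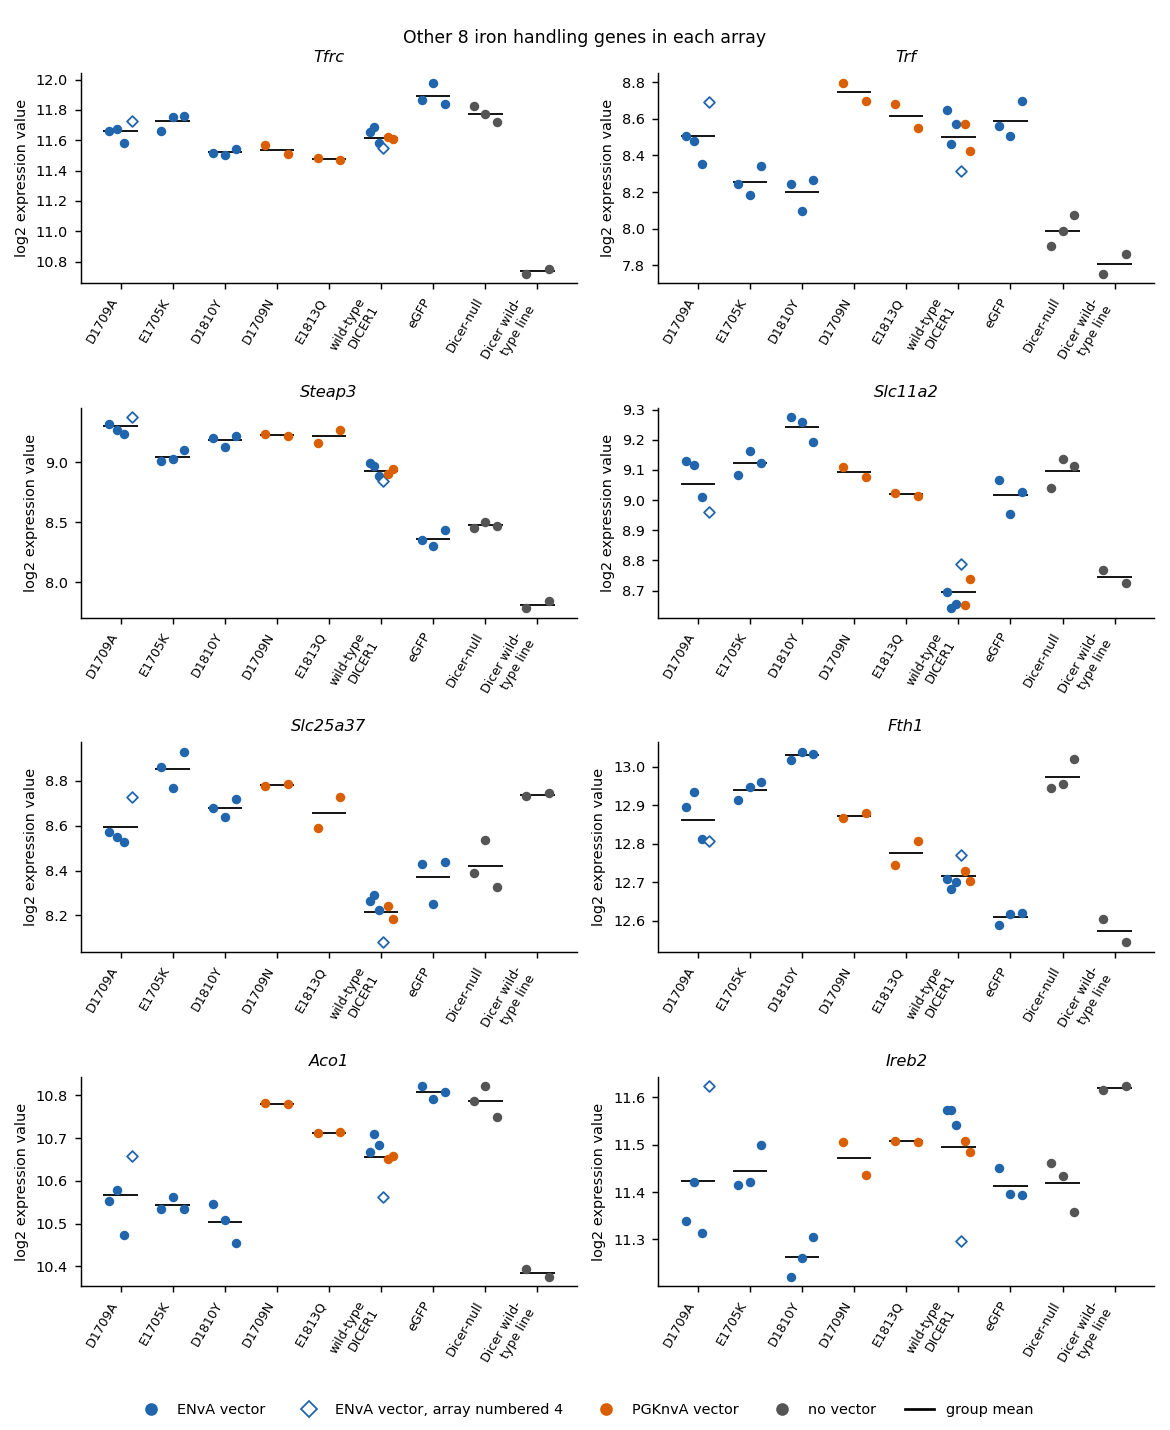
Log2 level of the other 8 members on each array by group, with mutants to the left and controls to the right; bars are group means and open diamonds the arrays numbered 4. Tfrc is lowest in Dicer-WT (10.74 on average), Slc11a2 is low in WT-DICER1 and Dicer-WT, and Steap3 stands in 3 steps from the mutants down to WT-DICER1 and then to eGFP and Dicer-null.

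Slc25a37 was higher in all 5 mutants than in WT-DICER1. The mutant arrays lay between 8.53 and 8.93 with a median of 8.72, and the WT-DICER1 arrays between 8.08 and 8.29 with a median of 8.23, without overlap. The rise averaged 0.50 (1.41-fold, SE 0.0423, adjusted p = 2.18e-10) and ranged from 0.38 in D1709A to 0.64 in E1705K. Against eGFP (8.43, 8.25 and 8.44) it was 0.34 (adjusted p = 5.16e-05) and was called in each mutant, at 0.22 in D1709A (adjusted p = 0.00625), which was lost without eGFP array 2 (adjusted p = 0.0645). E1813Q was 0.28 above eGFP (adjusted p = 0.0398), which was lost without E1813Q array 2 (adjusted p = 0.189), eGFP array 2 (adjusted p = 0.107) or any 1 of WT-DICER1 arrays 1, 2, 3, 5 and 6 (adjusted p = 0.0565 to 0.135). WT-DICER1 was lower than eGFP by 0.16 (difference −0.16, adjusted p = 0.038), which was lost without eGFP array 1 or 3 (adjusted p = 0.141 and 0.16), WT-DICER1 array 3 or 4 (adjusted p = 0.0562 and 0.137) or both arrays numbered 4 (adjusted p = 0.0948). Dicer-null was lower than Dicer-WT by 0.32 (−0.32, adjusted p = 0.000963).

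Hmox1 was lower in each of the 5 mutants than in WT-DICER1, and higher in the mutants on average than in eGFP. It was 10.98, 10.93, 10.88 and, on array 4, 10.30 in D1709A, 10.92, 10.86 and 10.96 in E1705K, 11.09, 11.05 and 11.04 in D1810Y, 10.64 and 10.60 in D1709N and 10.21 and 10.24 in E1813Q. WT-DICER1 ranged from 11.41 to 12.09 with a median of 11.56, and its highest array was number 4. eGFP stood at 9.81, 9.68 and 9.90, Dicer-null at 11.26, 11.29 and 11.32 and Dicer-WT at 9.67 and 9.63. Every WT-DICER1 array was above every mutant array, and every mutant array was above every eGFP array. The 5 mutants were lower than WT-DICER1 by 0.89 (difference −0.89, 1.86-fold, SE 0.0825, adjusted p = 9.71e-10), and each of them was called, from −0.55 in D1810Y to −1.38 in E1813Q. Within the ENvA arrays 1 to 3 the mean difference was −0.49, within the arrays numbered 4 it was −1.79, and within the PGKnvA arrays it was −1.19. Against eGFP the mutants were higher by 0.92 (1.90-fold, SE 0.121, adjusted p = 4.75e-07), and 4 of 5 were called. E1813Q was 0.43 above eGFP (adjusted p = 0.108), and this was called without array 4 of D1709A (adjusted p = 0.0229), without both arrays numbered 4 (0.27, adjusted p = 0.000702), with no vector term (adjusted p = 0.0162) and with the replicate block (adjusted p = 0.0338). WT-DICER1 was higher than eGFP by 1.82 (3.52-fold, adjusted p = 5.69e-12), Dicer-null was higher than Dicer-WT by 1.65 (3.13-fold, adjusted p = 8.1e-10), and eGFP was lower than Dicer-null (difference −1.497, 2.82-fold, adjusted p = 1.36e-09). Some, but not all, of the listed endoderm and fibroblast markers were also highest in WT-DICER1. Gata6, an endoderm transcription factor, averaged 7.07 to 7.61 in the mutants, 8.21 in WT-DICER1 and 7.06 in eGFP. Postn, a fibroblast matrix gene, averaged 5.00 to 6.35 in the mutants, 7.21 in WT-DICER1 and 4.81 in eGFP. Other markers of these lists were highest elsewhere, such as Gata4 in Dicer-null (8.21), Dab2 in E1705K (8.56), Dcn in D1810Y (6.97) and Thy1 in D1709N (7.72). The part of these markers in the Hmox1 values was not tested.

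Ferritin heavy chain RNA was higher in the mutants than in WT-DICER1 by 0.18 (1.13-fold, SE 0.0192, adjusted p = 1.14e-08). Fth1 lay between 12.75 and 13.04 on the mutant arrays with a median of 12.90, between 12.68 and 12.77 with a median of 12.71 on the WT-DICER1 arrays, and at 12.59, 12.62 and 12.62 in eGFP. Mutants and WT-DICER1 overlapped in part, through the E1813Q array at 12.75, while every mutant array was above every eGFP array. The rise over WT-DICER1 was called in 4 of 5 mutants, and E1813Q was 0.06 above it (adjusted p = 0.231). The rise against eGFP was 0.29 (1.22-fold, adjusted p = 4.1e-09) and was called in each mutant, from 0.17 in E1813Q (adjusted p = 0.00884) to 0.42 in D1810Y. The E1813Q call was lost without E1813Q array 2 (adjusted p = 0.0654) and after centring of the arrays (adjusted p = 0.116). Dicer-null, at 12.97 on average, was 0.40 above Dicer-WT (adjusted p = 3.85e-10), and eGFP was 0.36 below Dicer-null (−0.36, adjusted p = 6.6e-10).

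Of the sensor genes, Aco1 fell in the 3 ENvA mutants against eGFP, by 0.24, 0.26 and 0.30 in D1709A, E1705K and D1810Y (differences −0.24, −0.26 and −0.30, with the highest adjusted p = 1.14e-05). The PGKnvA mutants were 0.03 and 0.09 below eGFP (−0.03 and −0.09) and were not called. The ENvA mutant means lay between 10.50 and 10.57 and the PGKnvA mutant means at 10.78 and 10.71, against eGFP arrays between 10.79 and 10.82. WT-DICER1 was 0.15 below eGFP (−0.15, adjusted p = 0.00153), and Dicer-null 0.40 above Dicer-WT (adjusted p = 4.08e-08). Against WT-DICER1, Aco1 was called lower in D1810Y (−0.15, adjusted p = 0.00172), in D1709A (−0.09, adjusted p = 0.0434) and in E1705K (−0.11, adjusted p = 0.0188). The D1709A call was lost when any 1 of D1709A arrays 1, 2 and 3, WT-DICER1 arrays 1, 2, 3, 5 and 6, Dicer-null array 1 and E1705K array 1 was left out (adjusted p = 0.0505 to 0.195), and the E1705K call without E1705K array 1 or 3 or WT-DICER1 array 2 or 3 (adjusted p = 0.0505 to 0.0666). The mean of the mutants was 0.03 below WT-DICER1 (−0.03, adjusted p = 0.249), and without both arrays numbered 4 it was called lower (−0.06, adjusted p = 0.0132). D1709N was 0.13 above WT-DICER1 (adjusted p = 0.053), which was called without those arrays (adjusted p = 0.00886).

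Ireb2 varied little, with group means of 11.26 in D1810Y to 11.62 in Dicer-WT. D1810Y was lower than WT-DICER1 by 0.23 (−0.23, adjusted p = 0.00188), and no mutant was called against eGFP (highest difference 0.09, lowest −0.15). The D1810Y difference from eGFP (−0.15, adjusted p = 0.051) was called when D1709A array 1, 3 or 4 or WT-DICER1 array 4 was left out (adjusted p = 0.0133 to 0.049). It was also called after centring of the arrays (adjusted p = 0.0202) and with no vector term (adjusted p = 0.0447). Without both arrays numbered 4, D1810Y (adjusted p = 0.000215) and E1813Q (adjusted p = 0.0118) were called against eGFP, and the mean of the mutants was lower than WT-DICER1 (−0.13, adjusted p = 5.01e-06), against −0.07 with them (adjusted p = 0.105). D1709A (−0.20, adjusted p = 4.02e-06) and E1705K (−0.12, adjusted p = 0.00296) were then called lower than WT-DICER1 as well, against −0.07 (adjusted p = 0.312) and −0.05 (adjusted p = 0.521) with those arrays. WT-DICER1 was 0.15 above eGFP without them (adjusted p = 0.000221) and 0.08 with them (adjusted p = 0.249). Dicer-null was 0.20 below Dicer-WT (−0.20, adjusted p = 0.0186), which was lost without Dicer-null array 3 (adjusted p = 0.0708) or Dicer-WT array 1 or 2 (adjusted p = 0.0705 and 0.0837).

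**Figure D3:**
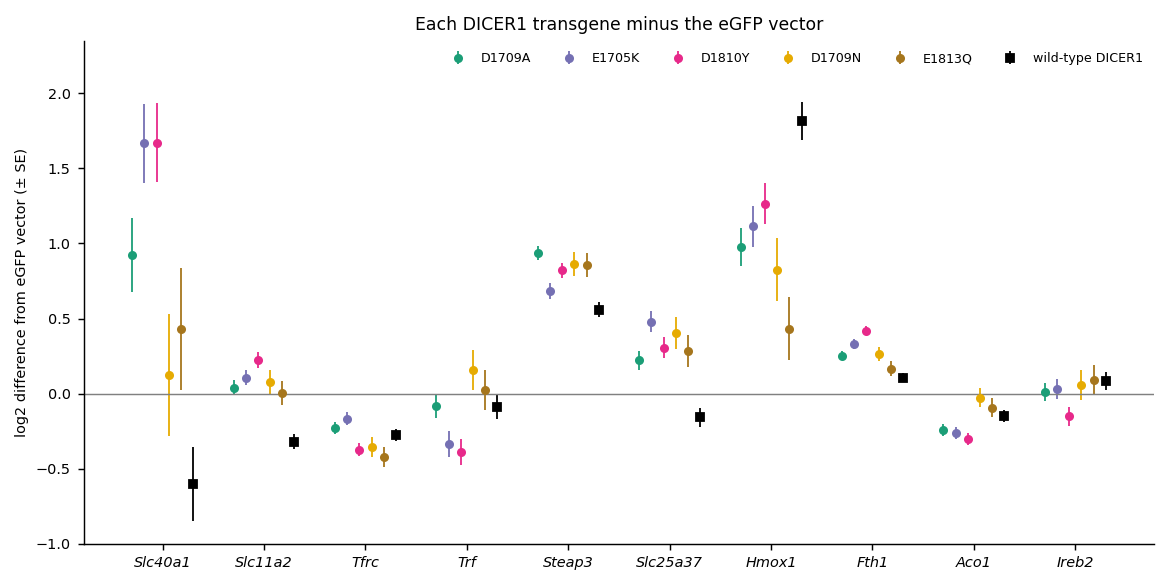
Log2 difference from eGFP with its SE, from the limma model, for each member in the 5 mutants and WT-DICER1. Steap3, Fth1 and Slc25a37 were called higher in all 5 mutants and Tfrc lower in all 5, and Hmox1 higher in all but E1813Q; Slc40a1, shown with no test, lies between 0.12 and 1.67 in the mutants and at −0.60 in WT-DICER1.

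Among the 9 members other than Slc40a1, 4 were higher in the mutants than in eGFP (29.3% of all genes tested) and 2 lower (23.8%), with 53.1% of all genes called in either direction. In WT-DICER1 against eGFP, 3 of the 9 were higher (30.8% of all genes) and 4 lower (28.7%), with 59.5% of all genes called. Both comparisons use the same eGFP arrays. In Dicer-null against Dicer-WT, 6 of all 10 members were higher (30.7% of all genes) and 2 lower (27.2%), with 57.9% called, and in eGFP against Dicer-null 2 were higher (20.2%) and 2 lower (27.4%), with 47.6% called. Among the 9 members other than Slc40a1, 4 were higher in the mutants than in WT-DICER1 (32.3% of all genes) and 1 lower (27.7%), with 60.1% called. The median difference of all 10 members was 0.38 against 0.01 over all genes for Dicer-null minus Dicer-WT. For eGFP minus Dicer-null it was −0.03 for both the members and all genes. Medians with Slc40a1 are not given for comparisons that use the mutant or WT-DICER1 arrays, from which it was selected. With a list this short, nothing particular to iron handling is read from these counts.

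Against WT-DICER1, D1709A had 4 of 9 members higher (24.1% of all genes) and 2 lower (21.7%), with 45.8% of all genes called. E1705K had 5 higher (27.3%) and 3 lower (20.7%), with 48% called, and D1810Y 4 higher (28.5%) and 5 lower (25.2%), with 53.7% called. D1709N had 4 higher (21.5%) and 1 lower (18.5%), with 40% called, and E1813Q 3 higher (21.1%) and 2 lower (19.5%), with 40.6% called. Slc11a2, Slc25a37 and Steap3 were higher than WT-DICER1 in each of the 5 mutants, and Hmox1 was lower in each. Against eGFP, D1709A had 4 of 9 members higher (25.6% of all genes) and 2 lower (22.4%), with 48% called. E1705K had 4 higher (30.7%) and 3 lower (22.6%), with 53.4% called, and D1810Y 5 higher (29%) and 3 lower (23%), with 52% called. D1709N had 4 higher (19%) and 1 lower (16.9%), with 36% called, and E1813Q 3 higher (19.4%) and 1 lower (18.4%), with 37.8% called. Steap3, Fth1 and Slc25a37 were higher and Tfrc lower than eGFP in each of the 5 mutants. The 5 mutants were set against the same WT-DICER1 or eGFP arrays. The share of all genes called in 1 direction in all 5 was not computed. Nothing particular to iron handling is therefore read from the members called in all 5.

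**Figure D4:**
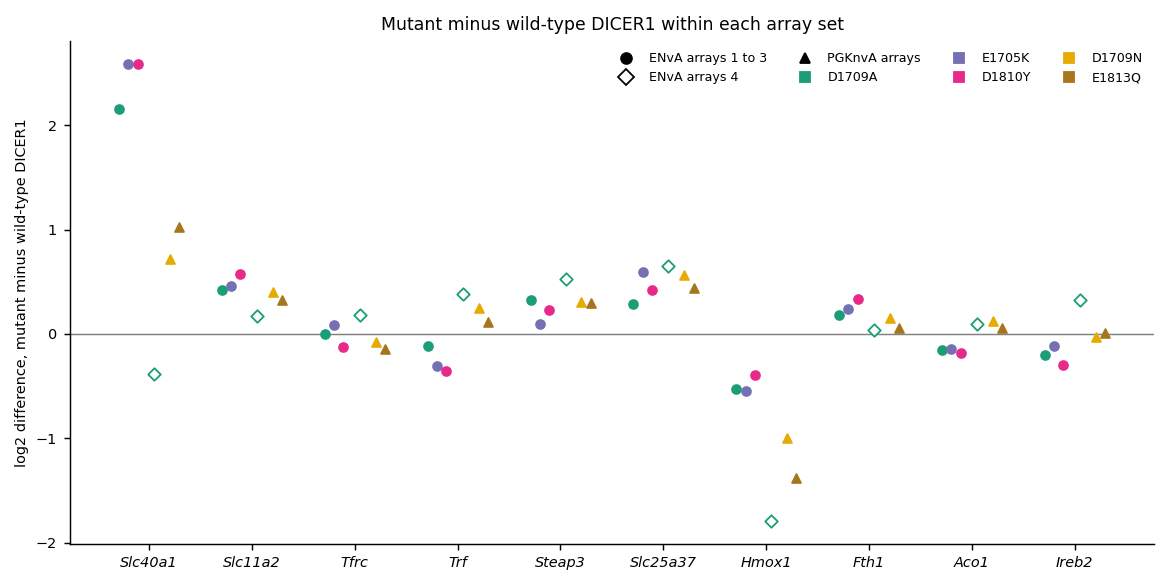
Mutants minus WT-DICER1 in log2 units for each member within the ENvA arrays 1 to 3, the single arrays numbered 4 and the PGKnvA arrays. Fth1, Slc11a2, Slc25a37 and Steap3 are above 0 and Hmox1 below 0 in all 3 sets, and the other 5 change sign.

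Within the 3 array sets, 5 of 10 members kept 1 sign of the difference from WT-DICER1, against 45% of all genes. They were Fth1, Slc11a2, Hmox1, Slc25a37 and Steap3. Trf ran from −0.26 in the ENvA arrays 1 to 3 to 0.38 in the arrays numbered 4, and Ireb2 from −0.21 to 0.33. The mutants also differed among themselves: the moderated F test called 8 of the 9 members other than Slc40a1, where 43.5% of all genes were called. The exception was Ireb2 (adjusted p = 0.0784), which was called without the arrays numbered 4 (adjusted p = 1.74e-05). The Hmox1 call (adjusted p = 0.0204) was lost without E1813Q array 1 or 2 (adjusted p = 0.0684 and 0.0574), the Slc11a2 call without D1810Y array 1 or 2 or D1709A array 3 (adjusted p = 0.0981, 0.0805 and 0.0502), the Slc25a37 call without E1705K array 1 or 3 (adjusted p = 0.0645 and 0.101) and the Aco1 call without WT-DICER1 array 5 or 6 (adjusted p = 0.0616 and 0.0536). With the ENvA mutants alone, the F test called 6 of these 9 members, where 3974 of all 13954 genes were called. The Aco1 and Hmox1 calls were lost in it (adjusted p = 0.474 and 0.259). Across all 5 mutants, vector and mutation cannot be told apart in this test. Slc40a1 means of the mutants ran from 8.63 in D1709N to 10.19 in D1810Y, with no test.

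The mutants of the ENvA vector differed from those of PGKnvA in 3 of the 9 tested members, of which 1 ran higher (9.46% of all genes) and 2 lower (8.52%), with 18% of all genes called. The difference of the effects against WT-DICER1, ENvA minus PGKnvA, was 0.12 for Fth1 (adjusted p = 0.0425), −0.36 for Trf (adjusted p = 0.0264) and −0.21 for Aco1 (adjusted p = 0.00895). Hmox1, at 0.49, was not called (adjusted p = 0.052) until array 4 of D1709A or of WT-DICER1 was left out (adjusted p = 0.00247 and 0.000589), and Ireb2 was called without both arrays numbered 4 (−0.20, adjusted p = 0.000487, against −0.11 and 0.363 with them). For Slc40a1 the difference was 1.15 (SE 0.339) and 1.57 without the arrays numbered 4, as a description. With no filter on low values (adjusted p = 0.057) or no mean-variance trend (adjusted p = 0.105), Fth1 was not called. The Fth1 call was lost without any 1 of 13 arrays (D1709A 1, D1709N 1 and 2, D1810Y 2 and 3, E1705K 2 and 3, E1813Q 1, and WT-DICER1 1, 2, 3, 5 and 6), with an adjusted p of 0.0526 to 0.19. The Trf call was lost without any 1 of 6 (D1709N 1, E1813Q 1, and WT-DICER1 1, 3, 5 and 6), with an adjusted p of 0.0524 to 0.193, and the Aco1 call without WT-DICER1 array 5 (adjusted p = 0.0585). As the WT-DICER1 means on ENvA and PGKnvA were equal, this difference is the plain difference between the ENvA and PGKnvA mutant means. Because each mutation was measured in 1 vector, vector and mutation cannot be told apart.

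Other genes of iron handling were taken from 4 lists with 58 tested genes. In the mutants against eGFP, 12 were higher (29.3% of all genes) and 9 lower (23.8%), and in WT-DICER1 against eGFP 17 (30.8%) and 15 (28.7%). In the mutants against WT-DICER1, 20 were higher (32.3% of all genes) and 18 lower (27.7%). In Dicer-null against Dicer-WT these counts were 17 (30.7%) and 15 (27.2%), and in eGFP against Dicer-null 12 (20.2%) and 14 (27.4%). In the list of the transferrin cycle, uptake and export (11 tested), 4 were higher and 0 lower in the mutants than in eGFP. Steap1, a metalloreductase related to Steap3, stood at 9.02 over the mutants, against 7.45 in eGFP, a rise of 1.57 (SE 0.0663, adjusted p = 4.56e-16), and at 9.001 in WT-DICER1. The metal transporter gene Slc39a8 averaged 7.24 over the mutants, against 6.37 in eGFP, which is just under the filter level (difference 0.87, adjusted p = 1.66e-08). Slc46a1, a transporter of folate and haem, was 9.35 over the mutants and 8.51 in WT-DICER1 (difference 0.83, SE 0.0586, adjusted p = 6.96e-12). In the list of haem synthesis, transport and breakdown (20 tested), 7 were higher and 7 lower in the mutants than in WT-DICER1. Alas1, the rate-limiting enzyme of haem synthesis outside red cells, averaged 9.97 over the mutants and 9.24 in WT-DICER1 (difference 0.74, SE 0.0427, adjusted p = 1.84e-13). Of the storage and sensing list (10 tested), 5 were higher and 4 lower. Bach1, the repressor of Hmox1, averaged 9.35 over the mutants and 9.91 in WT-DICER1 (difference −0.56, SE 0.0383, adjusted p = 4.13e-12). Of iron-sulphur cluster assembly (17 tested), 4 were higher and 7 lower. Hscb, a co-chaperone of cluster transfer, was 7.90 in Dicer-null and 8.72 in Dicer-WT (difference −0.81, adjusted p = 5.51e-07).

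NRF2 and BACH1, the regulators of Hmox1, have other targets, of which 8 were tested. Of these, 1 was higher (32.3% of all genes) and 3 lower (27.7%) in the mutants than in WT-DICER1, and 2 were higher (29.3%) and 3 lower (23.8%) in the mutants than in eGFP. In WT-DICER1 against eGFP 3 were higher (30.8%) and 2 lower (28.7%). Nqo1, which encodes a quinone reductase, averaged 8.51 in WT-DICER1 and 10.08 in eGFP (difference −1.56, adjusted p = 4.78e-14), while Hmox1 was higher in WT-DICER1. In Dicer-null against Dicer-WT, 4 were higher (30.7%) and 1 lower (27.2%). Nqo1 was 9.73 in Dicer-null and 8.24 in Dicer-WT (difference 1.49, adjusted p = 2.84e-12), and Srxn1, sulphiredoxin, 9.65 in Dicer-null and 8.54 in Dicer-WT (difference 1.12, adjusted p = 5.86e-12). In eGFP against Dicer-null, 2 were higher (20.2%) and 3 lower (27.4%). Txnrd1, the cytosolic thioredoxin reductase, was 10.93 in eGFP and 10.22 in Dicer-null (difference 0.71, adjusted p = 6.91e-14).

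**Figure D5:**
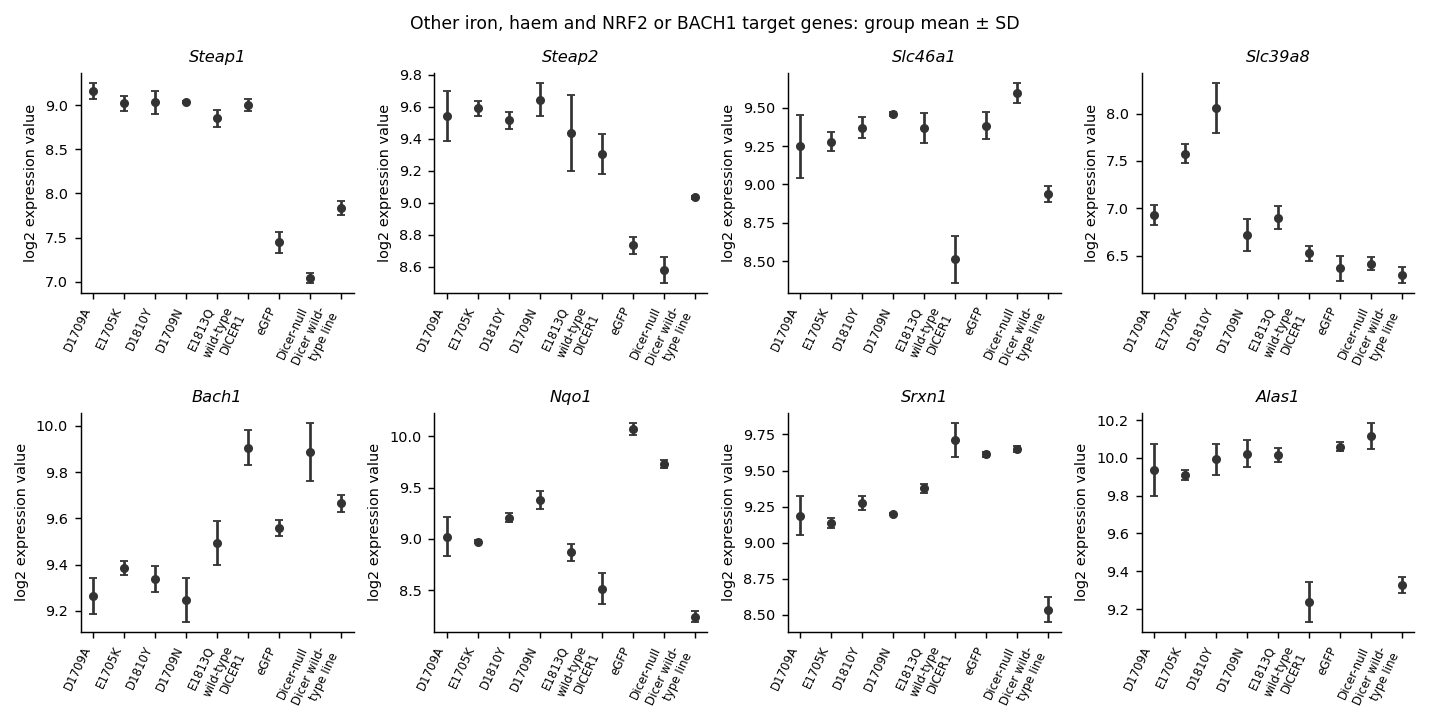
Group mean and SD in log2 units of 8 genes from the other iron lists and the NRF2 and BACH1 list, with mutants to the left. Steap1 is near 9 in all DICER1 transgene groups and near 7.4 in eGFP, while Slc46a1 and Alas1 are low in WT-DICER1.

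Marker genes of the cell type and of other types are given because ferroportin and Hmox1 are also made in other cells. All 8 ES cell markers were above the filter level in every group, and their mean lay between 12.2 and 12.5. The mean of 12 extraembryonic endoderm markers was 7.09 in D1709A, 7.27 in E1705K, 7.24 in D1810Y, 6.83 in D1709N, 6.88 in E1813Q, 7.26 in WT-DICER1, 7.02 in eGFP, 7.05 in Dicer-null and 7.05 in Dicer-WT, with 8 to 10 of the 12 above the filter level. Ttr, a defining marker, was at 5.17 or less in every group, while Dab2 and Gata6 differed between groups as given above and Cubn averaged 6.14 to 6.93 in the ENvA mutants, 4.48 in D1709N and 4.72 in E1813Q, against 6.66 in WT-DICER1 and 6.36 in eGFP. Of 6 macrophage markers, 1 or 2 were above the filter level, and their mean was 6.08 to 6.35. The 3 erythroid markers that were named averaged 6.96 to 7.13. Fibroblast markers averaged 6.61 to 6.74 in the mutants, 6.90 in WT-DICER1, 6.45 in eGFP, 6.37 in Dicer-null and 6.39 in Dicer-WT. The part of these cell types in the results was not tested.

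As a description across the 9 group means, which share the arrays and carry no test, Fth1 and Slc11a2 had the highest correlation among members (Pearson's r 0.785) and Slc11a2 and Ireb2 the lowest (r −0.777). The correlation of Slc40a1 with Slc25a37 was 0.727. Among all tested genes the group means most like those of Slc40a1 belonged to Larp1 (r 0.969), Slc43a2 (0.962), 2010204K13Rik (0.961), Them6 (0.955) and Scmh1 (0.946). Those most like Hmox1 belonged to Serp1 (0.911), Fundc2 (0.908) and Fermt3 (0.905), those most like Tfrc to Ubn2 (0.963) and Bola3 (0.961), those most like Fth1 to Dtx2 (0.958) and Zfp747 (0.931), and those most like Trf to Anks3 (0.982) and Gm7265 (0.956).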

How the data were processed

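Total RNA of 28 samples came from the Qiagen miRNeasy kit and was labelled by the GeneChip WT protocol with an Ambion kit, per the labels' protocols. The deposited log2 values per probe set were made by the authors with RMA (background correction, normalisation between arrays, probe summary) and Partek 6.6, per the submitters' processing notes. Array medians lay between 7.13 and 7.26. Their settings and a genome build are not stated there.

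Of 35556 probe sets, 21789 had 1 gene symbol, 1621 several and 12146 none. Each symbol took its probe set with the highest mean, and genes under the 30th percentile (6.42) were left out, leaving 13954. limma 3.58.1 (R 4.3.3) fitted 9 groups and a PGKnvA vector term to all arrays with a mean-variance trend and 18 residual degrees of freedom. The number of arrays limits the precision. Mutant averages weight 5 groups equally. The code was tested on simulated data. Figures used Python 3.11.15, numpy 2.4.6, pandas 2.3.3 and matplotlib 3.10.9.

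Members and lists were chosen with earlier results of these data known. The rule for named genes took all 10 members, the 2 largest rises and 2 largest falls called among other iron genes in each of the first 5 comparisons (some are not printed), and the 5 genes most correlated with each of Slc40a1, Trf, Tfrc, Hmox1 and Fth1. Listed genes outside the table were not analysed here. Promoter windows come from RefSeq. The 8 alternatives included no filter, the mean of a gene's probe sets, centring each array and no vector term. The others were 1 vector only, no trend, a replicate block in place of the vector term, and no arrays numbered 4. With 1 vector only, averages over the mutants took the ENvA mutants alone. Each of the 28 arrays was also left out in turn.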

Additional observations from a re-analysis of the deposited data

Results flagged for a closer look

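The arrays numbered 4 stood away from the other arrays of their group in 5 of 20 combinations of member and group that were tested. The gap of the extreme array to its nearest neighbour, as a share of the group's range, exceeded Dixon's limit each time. Chance alone marks about 1 in 20 independent groups, but these 20 combinations are not independent. Over all genes tested, array 4 had a median absolute deviation of 0.1285 from arrays 1 to 3 in each group. The median SD of those arrays was 0.0525 in D1709A and 0.0444 in WT-DICER1. The 5 outliers are thus not particular to these members. For Slc40a1 this share was 0.871 in D1709A (array 4 at 8.48, against 9.65 to 9.83 on the others) and 0.712 in WT-DICER1 (array 4 at 8.87, against 7.53 to 7.92). For Hmox1 it was 0.851 in D1709A (array 4 at 10.30, against 10.88 to 10.98) and 0.696 in WT-DICER1 (array 4 at 12.09, against 11.41 to 11.61). For Ireb2 it was 0.679 in WT-DICER1, where array 4 was at 11.30. The deviation of array 4 from the mean of arrays 1 to 3 had the same size and opposite sign in D1709A and WT-DICER1 for each member (−1.27 and 1.27 for Slc40a1, −0.63 and 0.63 for Hmox1).

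The mutant effect against WT-DICER1 differed between the ENvA and the PGKnvA mutants for 3 of the 9 members tested, by the test of the difference itself. This test called 18% of all genes. All 3 calls were lost without WT-DICER1 array 5. It was larger on ENvA by 0.12 for Fth1 (adjusted p = 0.0425), and the difference was −0.36 for Trf (adjusted p = 0.0264) and −0.21 for Aco1 (adjusted p = 0.00895). These differences used the limma model, and vector and mutation cannot be told apart in them.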

How the results depend on the processing

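For 189 gene results, 8 alternatives gave 1462 values. Of these, 1389 kept their call, or moved by less than the spread between arrays where untested, 25 lost the call, 43 gained it, and 4 untested Slc40a1 values moved by more than that spread. The other 1 reversed: Slc40a1 in D1709N against eGFP, untested, was −0.197 without the arrays numbered 4. Leaving out each of 28 arrays gave 5292 values, of which 5185 kept their call, 82 lost it, 24 gained it and 1 reversed, the same Slc40a1 value, which ran from −0.197 (without WT-DICER1 array 4) to 0.247 (without WT-DICER1 array 3). No called value changed direction, but 18 uncalled values changed sign under the alternatives and 33 when 1 array was left out. In the mutants against WT-DICER1, 5 of the 9 tested members were called, where 8382 of 13954 genes were called. With each array centred, 8 members and 8567 genes were called. With 1 vector only, where the mean takes the ENvA mutants alone, 8 members and 7848 genes were called. Genes called in the difference ENvA minus PGKnvA numbered 2509. They numbered 7449 with no vector term, 6372 with the replicate block, which also lacked that term, and 5743 without the arrays numbered 4. Members called in this difference numbered 3, but 6 with no vector term and 5 each with centring, the replicate block and no arrays numbered 4. The difference could not be computed with 1 vector only. Leaving out 1 array gave 950 (WT-DICER1 array 5) to 4459 genes (WT-DICER1 array 4) and 0 (WT-DICER1 array 5) to 5 members (WT-DICER1 array 4). Genes called among the 5 mutants numbered 6073, and 3974 with 1 vector only, where the ENvA mutants alone remain. Leaving out 1 array gave 5 to 8 members for E1705K against WT-DICER1 and 2 to 5 for E1813Q against eGFP. Genes called over the same fits numbered 5996 to 7188 for E1705K and 4174 to 6124 for E1813Q. The array numbers do not pair the samples: over 57 pairs of groups and numbers, deviations of same-numbered arrays correlated between −0.456 and 0.684, and 16 exceeded 0.1. With them as a replicate block in place of the vector term, WT-DICER1 against eGFP called 7766 genes and 6 members. The main fit called 8307 and 7, and the fit with no vector term and no block called 8780 and 7. The block could not be used for D1709N and E1813Q against WT-DICER1. Centring shifted the median of all genes by at most 0.04. The causes of these changes were not tested. The number of arrays limits the precision, and the linear relations between arrays make all p-values approximate.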

Other observations

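Slc39a8, a transporter of zinc, iron and manganese, was graded across the mutants. It averaged 6.93 ± 0.10 in D1709A (SD, n = 4), 7.58 ± 0.10 in E1705K (SD, n = 3), 8.06 ± 0.26 in D1810Y (SD, n = 3), 6.72 ± 0.17 in D1709N (SD, n = 2) and 6.90 ± 0.12 in E1813Q (SD, n = 2). It averaged 6.53 ± 0.08 in WT-DICER1 (SD, n = 6), 6.37 ± 0.13 in eGFP (SD, n = 3), 6.42 ± 0.07 in Dicer-null (SD, n = 3) and 6.30 ± 0.08 in Dicer-WT (SD, n = 2). Flvcr2, a transporter of the major facilitator family, averaged 9.21 ± 0.21 in D1709A (SD, n = 4), 8.10 ± 0.08 in E1705K and 8.49 ± 0.08 in D1810Y (SD, n = 3 each), 9.34 ± 0.10 in D1709N and 9.55 ± 0.01 in E1813Q (SD, n = 2 each), 8.55 ± 0.17 in WT-DICER1 (SD, n = 6), 9.10 ± 0.05 in eGFP and 8.26 ± 0.07 in Dicer-null (SD, n = 3 each), and 7.86 ± 0.09 in Dicer-WT (SD, n = 2). The differences among these means were not tested here. Both genes fell under the rule for named genes, and the grading was seen after their values were known.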
